A study of Mus musculus with 20 samples.

Results

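The genes described here encode the SR proteins (symbols Srsf followed by a number) and the heterogeneous nuclear ribonucleoproteins (hnRNPs, symbols starting with Hnrnp), the 2 large families of RNA-binding proteins that choose splice sites. They were picked by symbol among the protein-coding genes of the count table, which gave 32 genes (12 SR and 20 hnRNP genes) of the 57010 genes listed. RNA was measured in the livers and kidneys of 10 male mice of UM-HET3, a genetically heterogeneous stock whose animals differ in genotype. The mice were 12 months old when treatment began. In the 7c group (6 mice), osmotic minipumps under the skin released repsox, tranylcypromine, DZNep, CHIR99021, forskolin and TTNPB at 0.1 mg/kg/day each, with valproate at 1 mg/kg/day, for 28 days. The vehicle group (4 mice) carried pumps filled with DMSO and PEG300 alone for the same time. Every library came from whole tissue. In such bulk RNA, fewer cells of a type and less RNA per cell cannot be told apart.

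SR proteins carry RNA recognition motifs and a tail rich in arginine and serine. They bind exonic enhancers and help the U1 and U2 particles to recognise the neighbouring splice sites. Many hnRNPs bind exonic or intronic silencers and act against exon inclusion, and the balance between the families shifts the choice of alternative exons. Members of both families are known to limit their own abundance by splicing in an exon with a premature stop codon (a poison exon), after which the transcript is degraded by nonsense-mediated decay (NMD).

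Transcripts that could undergo NMD were annotated for most of the genes (GENCODE vM39, assembly GRCm39). At least 1 transcript marked as an NMD substrate was annotated for 25 of the 32 genes (11 SR and 14 hnRNP genes), against 54.7% of the 21664 protein-coding genes matched. A retained-intron transcript was annotated for 22 of the 32, against 42.3% of protein-coding genes, and the median number of transcripts per gene was 27.5 against 8. The counts analysed here are sums per gene, so transcripts with and without these exons could not be separated.

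In 12 of the genes the annotation holds a cassette exon that is absent from the coding parts of the productive transcripts and ends the reading frame. The coding part of this exon is shown for Srsf3 and Srsf7, textbook cases of poison exons, and for genes whose values are described below. Each sequence runs 5′ to 3′ on the gene's strand up to the stop codon, which is in capitals, and is credited to GENCODE vM39 on GRCm39.
Srsf3 (chr17:29258428-29258461, plus strand): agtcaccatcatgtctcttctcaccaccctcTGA
Srsf5 (chr12:80994903-80994953, plus strand): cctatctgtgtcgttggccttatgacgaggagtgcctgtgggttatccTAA
Srsf7 (chr17:80512483-80512510, minus strand): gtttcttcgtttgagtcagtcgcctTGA
Srsf9 (chr5:115466406-115466487, plus strand): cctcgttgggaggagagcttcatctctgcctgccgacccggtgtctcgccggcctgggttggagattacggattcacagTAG
Hnrnpd (chr5:100123820-100123841, minus strand): tgtgatttggctgggatgtTAA
Hnrnpl (chr7:28516760-28516818, plus strand): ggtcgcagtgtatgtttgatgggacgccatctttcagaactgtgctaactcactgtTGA
Hnrnpll (chr17:80343032-80343097, minus strand): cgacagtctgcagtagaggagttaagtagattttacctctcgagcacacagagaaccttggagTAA
Hnrnpr (chr4:136049251-136049307, plus strand): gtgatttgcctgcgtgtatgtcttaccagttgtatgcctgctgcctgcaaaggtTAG

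The whole exon of Srsf3 is 456 bases long and lies in 12 of its 21 NMD transcripts. That of Srsf5 is 338 bases long (6 of 55 NMD transcripts), that of Srsf7 107 bases (9 of 35) and that of Srsf9 358 bases (14 of 29). The hnRNP exons shown have 73 bases in Hnrnpd (4 of 20), 70 in Hnrnpl (2 of 3), 132 in Hnrnpll (1 of 9) and 110 in Hnrnpr (1 of 9).

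The promoters of the genes were rich in the dinucleotide CG. RefSeq windows (GRCm38.p6, 250 bases before to 50 after a start) were given for 29 of the 32 genes, 41 windows in all. The median window held 31 CG dinucleotides, against 13 over 21263 windows of 17492 genes. On both strands, CCAAT was found in 51.2% of the windows (38.2% of all windows), CCGGAAG in 24.4% (11.6%) and TATAAA in 9.76% (12.6%). Some genes have several windows, which can overlap, and the 10 windows with CCGGAAG belong to 6 genes. Counted by gene, CCGGAAG was found in 20.7% of the 29 genes (12.9% of all genes) and CCAAT in 58.6% (42.3%).

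Expression spanned a wide range within both families. Levels were compared between genes as TPM, a level per length computed here from the counts and the union of a gene's exons. In vehicle liver, Srsf5, an SR protein gene, was highest on average, with 142, 182, 157 and 207 TPM in the 4 mice (172 ± 28.7, SD, n = 4). Hnrnpa2b1, which encodes the abundant A2 and B1 core proteins, followed with 134, 139, 131 and 138 TPM. Hnrnpa3, a close relative of it, had 113, 117, 111 and 102 TPM. The values of these 3 genes did not overlap, and the lowest Srsf5 value lay just above the highest of Hnrnpa2b1. The next genes were Srsf2 (96.7 ± 12.1 TPM) and Hnrnpa0 (84.9 ± 17.2), whose values overlapped each other.

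In vehicle kidney, the order at the top differed. Hnrnpa2b1 was highest with 142, 105, 148 and 155 TPM, and Hnrnpa0 had 120, 94.3, 116 and 139 TPM. Srsf5 had 106, 53.7, 142 and 130 TPM. The values of these 3 genes overlapped, and the second vehicle kidney was the lowest in each. The order also depends on the length used: with the coding length or the longest transcript, 2 of the 3 genes at the top were the same in each tissue. At the other end, Srsf4 had 4.48 ± 1.14 TPM in vehicle liver and 5.08 ± 1.75 in vehicle kidney, and Hnrnpr, a cytoplasmic and nuclear RNA-binding protein gene, had 6.30 ± 0.292 and 6.91 ± 1.24. Srsf12 had between 0 and 2 counts per library and Srsf19 had 0 counts in all 20. Both failed the filter (a minimum of 10 counts in 50% or more of the libraries), so that 30 genes were tested in each comparison.

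**Figure D1:**
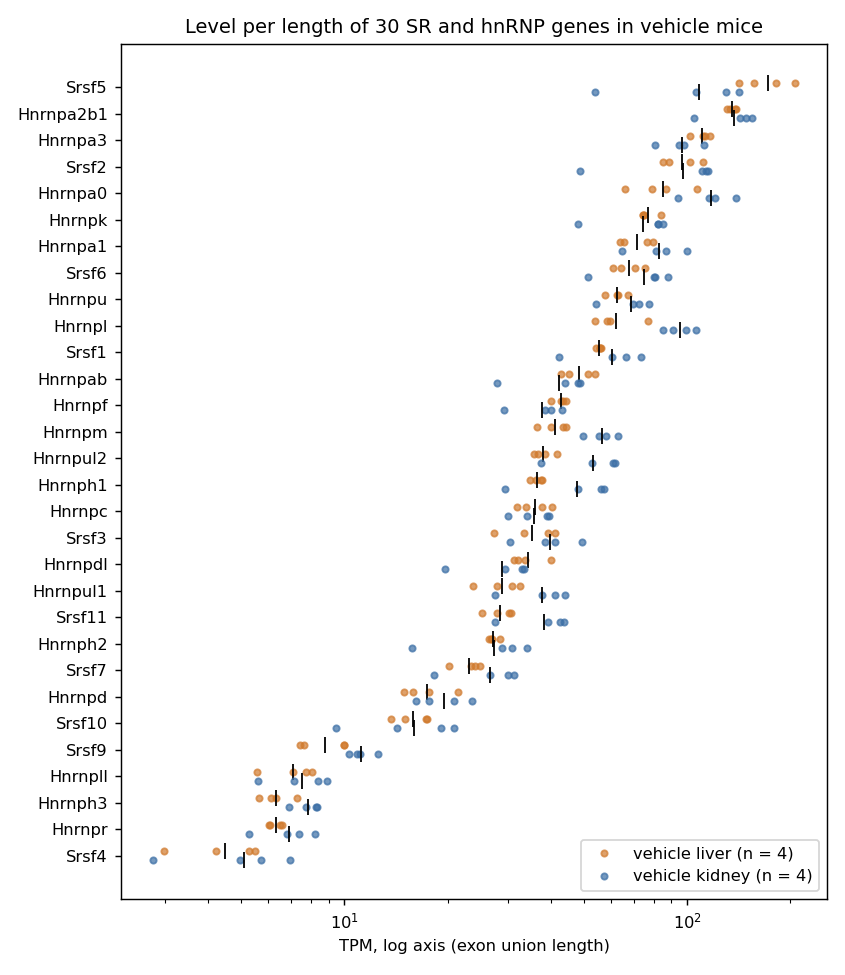
Level of the 30 SR and hnRNP genes that passed the filter in the 4 vehicle livers and the 4 vehicle kidneys, as TPM on a log axis, with a point for each library and a tick for the mean. Srsf5 leads in liver at 172 TPM and Hnrnpa2b1 in kidney at 138 TPM, and Srsf4 is lowest in both.

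The first question of the design was whether 4 weeks of 7c changed expression in each organ. In liver, no SR or hnRNP gene passed an adjusted p of 0.05 in edgeR's quasi-likelihood test (0 of 30, lowest adjusted p 1.00, 0 at an unadjusted p under 0.05), nor under DESeq2 or limma-voom. Over all 15012 genes tested, 0.00666% passed, a single gene (Zfp949, named after its value was seen), and 565 had an unadjusted p under 0.05. Of the 30 genes, 9 were higher and 21 lower in the 7c group, with log2 fold changes from -0.23 to 0.13. Their median was -0.04, against 0.00 over all genes, with -0.07 in the SR and -0.03 in the hnRNP genes. It was -0.06 without the fourth 7c liver, -0.03 without the first vehicle liver and -0.07 by library size alone. In none of the 30 did the 7c livers lie all above the vehicle livers (0.373% of all genes) or all below them (0.293%). The 95% interval of the fold change lay within 1.5-fold for 30 of 30 genes and was widest for Srsf4 (0.745 to 1.46).

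The 4 genes with the lowest p in liver were lower in the 7c group, and all overlapped with vehicle. Values per library are CPM, counts relative to library size, scaled with TMM factors over the 20 libraries. Hnrnpd (AUF1), which binds AU-rich elements and promotes mRNA decay, had 56.4, 49.1, 55.9 and 67.2 CPM in the vehicle livers. In the 6 7c livers it ranged from 39.4 to 59.4 CPM with a median of 50.1. Of the vehicle livers, 3 of 4 lay within the 7c range, and the means were 57.2 ± 7.49 and 49.7 ± 6.47 (SD). The log2 fold change of Hnrnpd was -0.23 (SE 0.119, 95% interval -0.49 to 0.02, adjusted p = 1.00 by edgeR), and -0.13 without the fourth vehicle liver.

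Hnrnpr had 51.2, 51.7, 45.6 and 48.8 CPM in the vehicle livers and 40.5 to 49.4 CPM (median 46.1) in the 7c livers, a log2 fold change of -0.14 (SE 0.0860). Hnrnpa1, a repressor of exon inclusion, had 87.5, 94.2, 75.4 and 93.6 CPM against 76.8 to 85.0 CPM (median 81.4), a log2 fold change of -0.13 (SE 0.0855), which ranged from -0.18 to -0.08 with 1 liver left out. Srsf1, the founding SR protein, had 117, 108, 101 and 104 CPM against 94.2 to 113 CPM (median 99.8), a log2 fold change of -0.11 (SE 0.0831), and -0.06 without the first vehicle liver. For Hnrnpa1 a single vehicle liver, the third, lay below all 7c livers. For Srsf1, 4 of 6 7c livers lay below all vehicle livers.

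In kidney, again no SR or hnRNP gene passed the threshold (0 of 30, lowest adjusted p 0.997, 0 at an unadjusted p under 0.05), nor under DESeq2 or limma-voom. Over all 17749 genes, 0% passed in edgeR and 463 had an unadjusted p under 0.05. The paper, also with edgeR, lists a few genes past this threshold in each organ, and no SR or hnRNP gene is among them. Of the 30 genes, 9 were higher and 21 lower, with log2 fold changes from -0.25 to 0.21 and a median of -0.03, against -0.01 over all genes. This median took either sign as libraries were left out, at 0.01 without the fifth 7c kidney, 0.01 without the first vehicle kidney and -0.08 without the second. With the replicate block, which pairs kidneys that share a number alone, it was 0.02. The number of genes above the median of all genes, 10 of 30, moved with it, to 21 without the fifth 7c kidney, 16 without the first vehicle kidney, 15 without the third, 6 without the second, 5 without the third 7c kidney and 19 with the block. In none of the 30 were the 7c kidneys all above (0.349% of all genes) or all below (0.366%) the vehicle kidneys. The 95% interval lay within 1.5-fold for 29 of 30 genes.

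The genes with the lowest p in kidney were not those in liver. Srsf9, a short SR protein gene, had 26.4, 31.5, 23.0 and 28.5 CPM in the vehicle kidneys and 26.2 to 37.7 CPM (median 32.6) in the 7c kidneys. Of the 7c kidneys, 4 of 6 lay above all vehicle kidneys, and the log2 fold change was 0.21 (SE 0.127, 95% interval -0.06 to 0.49, adjusted p = 0.997 by edgeR), and 0.14 without the third vehicle kidney. Hnrnpll, the regulator of Ptprc (CD45) exon skipping in lymphocytes, had 30.3, 24.7, 30.2 and 24.7 CPM against 17.3 to 28.2 CPM (median 23.2). Here 4 of 6 7c kidneys lay below all vehicle kidneys, and the log2 fold change was -0.25 (SE 0.153).

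Hnrnpa0, an A/B-type hnRNP gene, had 76.2, 72.7, 69.0 and 84.4 CPM in the vehicle kidneys against 78.4 to 91.8 CPM (median 82.8), a log2 fold change of 0.15 (SE 0.0999). Hnrnpul1, an hnRNP U-like gene, had 86.6, 76.9, 88.5 and 96.7 CPM against 65.2 to 86.4 CPM (median 83.7), a log2 fold change of -0.12 (SE 0.111). In both genes the groups overlapped, in Hnrnpa0 through the fourth vehicle kidney and in Hnrnpul1 through the second. In Hnrnpul1 the fifth 7c kidney, at 65.2 CPM, lay far below the other 5 (81.4 to 86.4 CPM), and without it the log2 fold change was -0.06. Without the fourth vehicle kidney it was also -0.06, and with the replicate block -0.07.

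**Figure D2:**
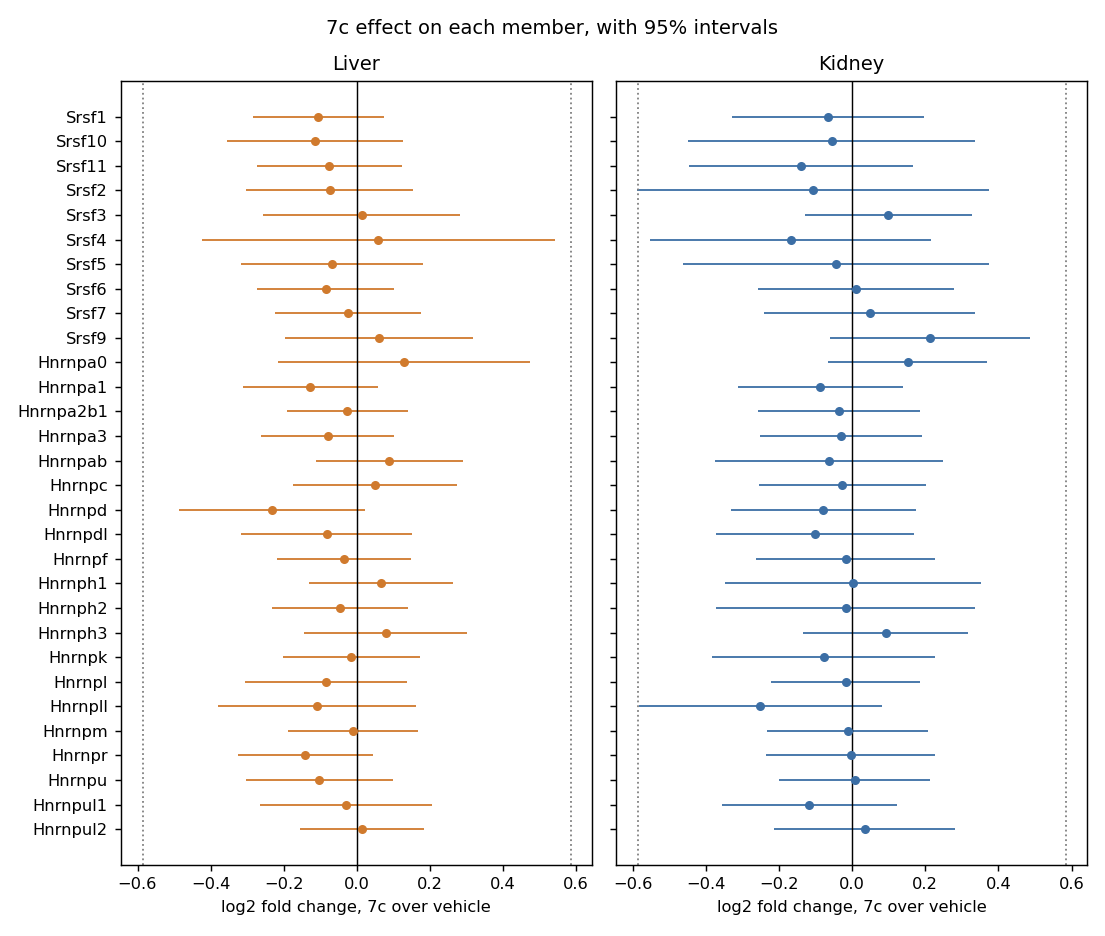
Log2 fold change of 7c against vehicle for the 30 genes in liver and kidney, with 95% intervals from edgeR and dotted lines at 1.5-fold up and down. All intervals cross 0, and the interval of Srsf2 in kidney is the one that reaches past 1.5-fold.

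The exception to the 1.5-fold bound was Srsf2 (SC35), an SR protein of nuclear speckles. It had 97.9, 50.5, 90.9 and 90.4 CPM in the vehicle kidneys and 48.9 to 103 CPM (median 79.5) in the 7c kidneys. Its lowest values in the groups, 50.5 and 48.9 CPM, came from the second vehicle and the fifth 7c kidney, and the other 8 kidneys had 61.7 to 103 CPM. Its fold change was 0.929 with a 95% interval from 0.665 to 1.30. Without those 2 kidneys its log2 fold change moved from -0.11 to -0.18 (SE 0.145, adjusted p = 0.677 by edgeR).

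The treatment by tissue interaction asks whether the 7c effect differed between the organs. It called 0 of the 30 genes (lowest adjusted p 1.00, 0 at an unadjusted p under 0.05), and 0.00706% of the 14163 genes tested, again a single gene (Ces1c, named after its value was seen). The median difference of the log2 fold changes (liver minus kidney) was -0.03. It was 0.05 without the vehicle liver and kidney numbered 2. The 95% interval lay within 1.5-fold for 29 of 30 genes, and the exception was Srsf4.

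**Figure D3:**
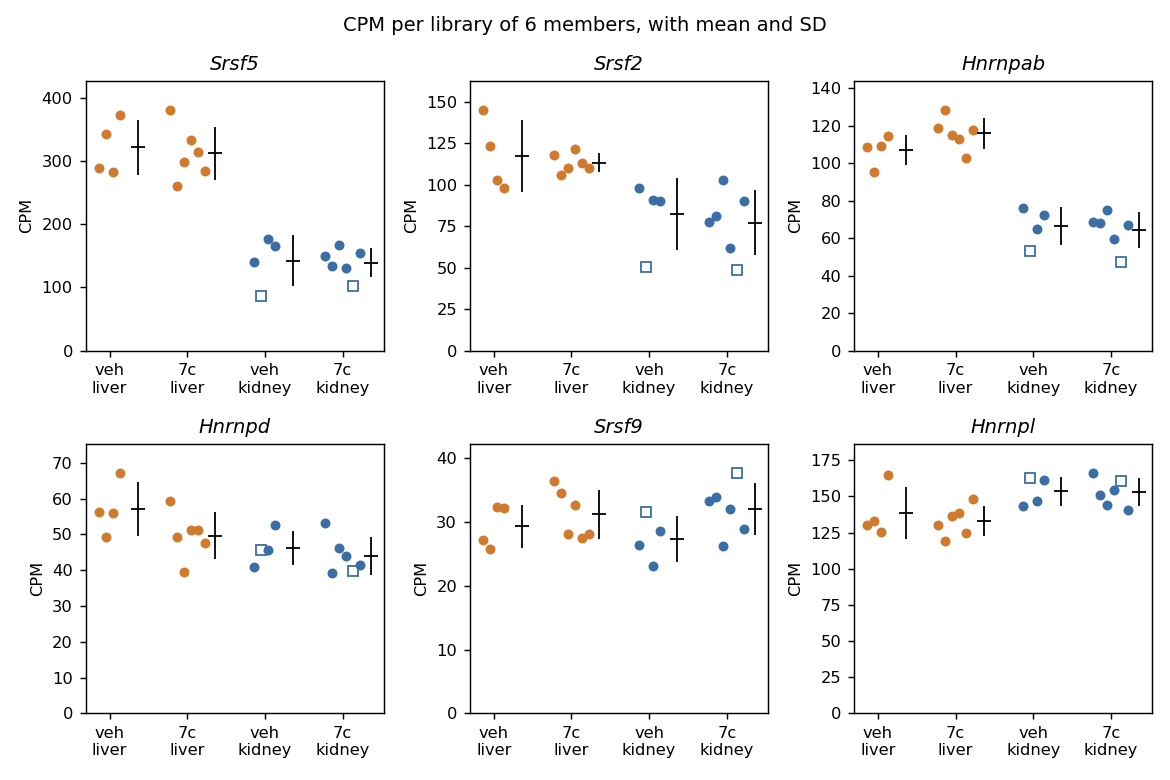
CPM in every library for Srsf5, Srsf2, Hnrnpab, Hnrnpd, Srsf9 and Hnrnpl, by tissue and treatment, with mean ± SD, and open squares for the kidneys of vehicle replicate 2 and 7c replicate 5. The 7c and vehicle points overlap in every panel, Srsf5 and Hnrnpab lie higher in liver than in kidney, and the open squares are the lowest kidneys for Srsf5, Srsf2 and Hnrnpab.

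The organs differed much more than the treatments, in a direction that depends on the scaling. With TMM scaling, 13 of 30 genes passed the threshold as higher in vehicle liver (25.7% of all 17245 genes tested) and 0 as higher in vehicle kidney (27.7% of all genes). The median log2 fold change of liver over kidney was 0.34, against -0.06 over all genes, and 29 of 30 genes lay above that median of all genes. In the 7c mice, which share no sample with this contrast, 15 genes were higher in liver (30.9% of all genes) and 1 in kidney (34.8% of all genes), with a median of 0.22 against -0.08. Of these calls 11 were shared, which is 84.6% of the vehicle and 73.3% of the 7c calls, against 94.1% and 79.0% over all genes higher in liver.

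The TMM factors, which correct for library composition, were 0.749 to 0.858 in liver and 1.13 to 1.32 in kidney. When library size alone was used, 0 of 30 genes were higher (13.9% of all genes) and 9 lower (47.3% of all genes) in vehicle liver, and the median was -0.27 against -0.66 over all genes. In 7c mice 1 was higher (16% of all genes) and 17 lower (57.5% of all genes), with a median of -0.41 against -0.70. The distance to the median of all genes was nearly the same, 0.40 with TMM and 0.39 without in vehicle mice and 0.30 with either in 7c mice. In each case 29 of 30 genes lay above the median of all genes. Values by library size alone are therefore given beside the calls between the organs.

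Srsf5 was the gene highest in liver relative to kidney. It had 289, 342, 283 and 372 CPM in the vehicle livers and 141, 86.7, 177 and 166 CPM in the vehicle kidneys. The 7c livers had 260 to 381 CPM (median 306) and the 7c kidneys 102 to 166 CPM (median 142). No kidney reached the lowest liver, and the log2 fold change was 1.17 in vehicle mice (SE 0.213, adjusted p = 0.000748 by edgeR) and 1.13 in 7c mice (SE 0.133, adjusted p = 2.01e-06). By library size alone it was 0.55 (adjusted p = 0.0676) and 0.49 (adjusted p = 0.00476), in the same direction. An exon of Srsf5 (chr12:80986436-80997630, plus strand) overlaps one of Slc10a1 on the other strand, a bile acid transporter gene of hepatocytes. Slc10a1 had 891 ± 90.1 CPM in vehicle liver and 0.931 ± 0.240 in vehicle kidney, and the strand setting of the counting is not given in the sources used here. Its part in the liver value of Srsf5 was not tested.

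Hnrnpdl, a relative of Hnrnpd, had 83.7, 81.6, 72.6 and 92.6 CPM in the vehicle livers and 50.0, 40.7, 52.8 and 54.6 CPM in the vehicle kidneys. Its log2 fold change was 0.74 in vehicle mice (SE 0.137, adjusted p = 0.000836 by edgeR) and 0.74 in 7c mice (SE 0.109). Hnrnpab, which binds single-stranded RNA and DNA, had 109, 95.4, 109 and 115 CPM against 76.1, 53.2, 64.8 and 72.3 CPM. The organs did not overlap in either gene.

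Hnrnpab was 0.69 higher on the log2 scale in vehicle mice (SE 0.141, adjusted p = 0.00168 by edgeR) and 0.82 in 7c mice (SE 0.115). Hnrnpa3 had 220, 211, 193 and 177 CPM in the vehicle livers and 121, 125, 134 and 120 CPM in the vehicle kidneys, with log2 fold changes of 0.68 (SE 0.122, adjusted p = 0.000700 by edgeR) and 0.61 (SE 0.0907). The organs did not overlap in Hnrnpa3 either. By library size alone, the vehicle values of Hnrnpdl, Hnrnpab and Hnrnpa3 were 0.13, 0.07 and 0.07, and in 7c mice they were 0.10, 0.18 and -0.02, none past the threshold.

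The other 9 genes called with TMM in vehicle mice were Hnrnpf, Hnrnpk, Hnrnpc, Hnrnpa2b1, Hnrnph2, Hnrnpu, Hnrnpr, Srsf1 and Srsf6, at log2 fold changes of 0.34 to 0.66. By library size alone none of the 9 passed the threshold in vehicle mice. Hnrnpf was then at 0.05, and the other 8 turned to values below 0, from -0.07 in Hnrnpk to -0.27 in Srsf6. In 7c mice, where 17 of the 30 genes passed as lower by library size alone, Hnrnpu and Srsf1 were lower, at -0.41 and -0.33. Hnrnpr and Srsf6 passed in vehicle mice but not in 7c mice, and Hnrnpll, Srsf10, Srsf2 and Srsf4 in 7c mice but not in vehicle mice. By library size alone Hnrnpll, Srsf10, Srsf2 and Srsf4 were at -0.11, -0.22, -0.12 and -0.11 in 7c mice, none past the threshold, and Hnrnpr and Srsf6 were lower in liver there, at -0.44 (adjusted p = 0.00113 by edgeR) and -0.41 (adjusted p = 0.00526). Whether the organ difference of these genes depends on treatment is the interaction above, which called none. Without the vehicle liver and kidney numbered 2, which the labels do not tie to one animal, 8 genes were higher in liver, and the median fell to 0.21. The count was 7 without the pair numbered 1, 8 without the pair numbered 4, 8 with RLE factors and 10 with the replicate block.

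At the low end, Hnrnpl, which binds CA-rich repeats, was the gene nearest to kidney. It had 130, 133, 125 and 165 CPM in the vehicle livers and 143, 163, 147 and 161 CPM in the vehicle kidneys, overlapping groups with a log2 fold change of -0.15 (SE 0.131, adjusted p = 0.360 by edgeR). In 7c mice the log2 fold change was -0.23 (SE 0.0838, adjusted p = 0.0224), from 119 to 148 CPM in liver (median 133) and 141 to 166 CPM in kidney (median 153). That call was lost when the 7c liver and kidney numbered 1, 2, 4 or 5 were left out. It was also lost with the replicate block, which here pairs a liver and a kidney of the same number. By library size alone both values passed the threshold, at -0.75 (adjusted p = 0.000751 by edgeR) in vehicle and -0.87 (adjusted p = 9.94e-08) in 7c mice.

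Hnrnpa0, Hnrnpm and Hnrnpul2 had nearly equal TMM CPM in both organs. Hnrnpa0 had 77.0, 59.2, 75.0 and 91.9 CPM in the vehicle livers, around the kidney values given above. Hnrnpm, an hnRNP that binds GU-rich sequence, had 105, 118, 103 and 111 CPM in liver against 118, 114, 97.6 and 105 CPM in kidney. Hnrnpul2 had 97.7, 106, 93.4 and 88.9 CPM against 94.5, 81.4, 102 and 106 CPM. The groups overlapped in all 3 genes. Their log2 fold changes in vehicle mice were 0.00, 0.01 and 0.01 (SE 0.150, 0.119 and 0.127) with TMM, and -0.60, -0.59 and -0.61 by library size alone.

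**Figure D4:**
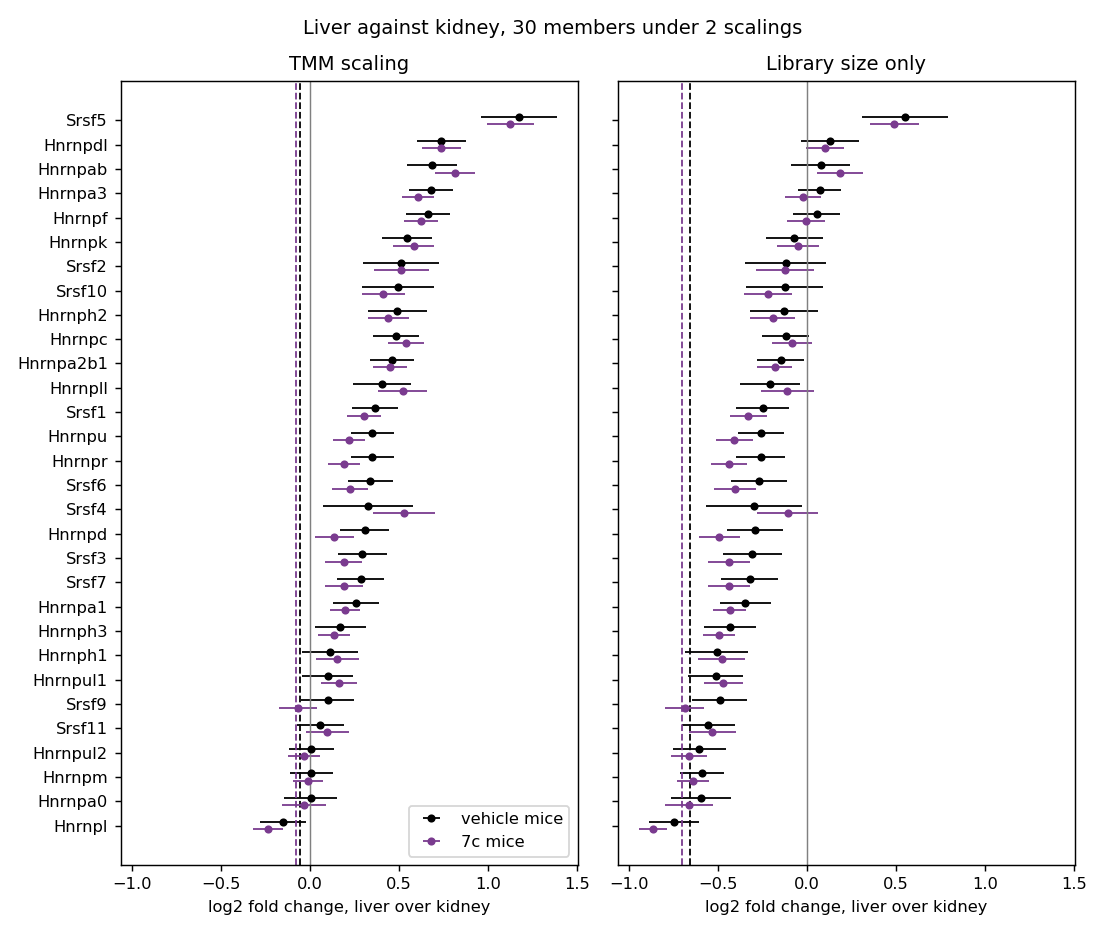
Log2 fold change of liver over kidney (± SE) for the 30 genes in vehicle mice (black) and 7c mice (purple), with TMM scaling on one side and library size alone on the other, and dashed lines at the median of all genes. The order of the genes is similar in both panels while the zero line moves, and 29 of 30 genes lie above the dashed line of vehicle mice in each.

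As a share of all counts, the 32 genes together took 0.292% ± 0.0119 in vehicle liver, 0.277% ± 0.0136 in 7c liver, 0.336% ± 0.0469 in vehicle kidney and 0.331% ± 0.0408 in 7c kidney (SD, n = 4 or 6). This share gave a log2 ratio of liver over kidney of -0.20 in vehicle and -0.26 in 7c mice. The sum of TMM-scaled CPM gave 0.41 in both. The 7c over vehicle ratio of the share was -0.08 in liver and -0.02 in kidney on the log2 scale, and that of the TMM-scaled sum was -0.02 in both.

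Many of the genes were low in the same kidneys. The second vehicle kidney and the fifth 7c kidney were each among the 2 lowest of the 10 kidneys for 19 of the 30 genes, and were the lowest for 9 and 11. Their median deviation from each gene's median over the 10 kidneys was -0.15 and -0.18 on the log2 scale. It was larger in the SR genes (-0.30 and -0.29) than in the hnRNP genes (-0.08 and -0.17). Srsf5 had 86.7 and 102 CPM in these kidneys against 130 to 177 CPM in the other 8. Not all genes followed: Srsf9 was highest of all kidneys in the fifth 7c kidney, at 37.7 CPM. The third 7c kidney was the highest for 12 of the 30 genes. These counts were not taken over all tested genes, so whether they are particular to the 2 families was not tested.

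The same 2 kidneys differed from the others in more than the SR and hnRNP genes. They were also the lowest for the summed SR kinases (248 and 239 CPM against 274 to 317), SR-related proteins (722 and 771 against 801 to 928) and regulators of tissue-restricted splicing (392 and 352 against 399 to 511). The 7 genes of the Sm ring, the protein core of spliceosomal snRNPs, summed to 304 and 305 CPM in them, against 165 to 244 CPM in the other 8 kidneys. Kap, 1 of 8 tubule markers listed, had 41666 and 48509 CPM against 18820 to 30483 CPM. It made up most of the summed tubule markers (51154 and 58007 CPM), and the rest of that sum was not raised in these kidneys. Their TMM factors were the lowest of the kidneys, at 1.13 and 1.16. Mitochondrially encoded RNA took 3.98% of counts in the fifth 7c kidney, below the 5.93% to 9.15% of the other 8, and 6.73% in the second vehicle kidney, within that range. The part of these differences in the low SR values was not tested.

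**Figure D5:**
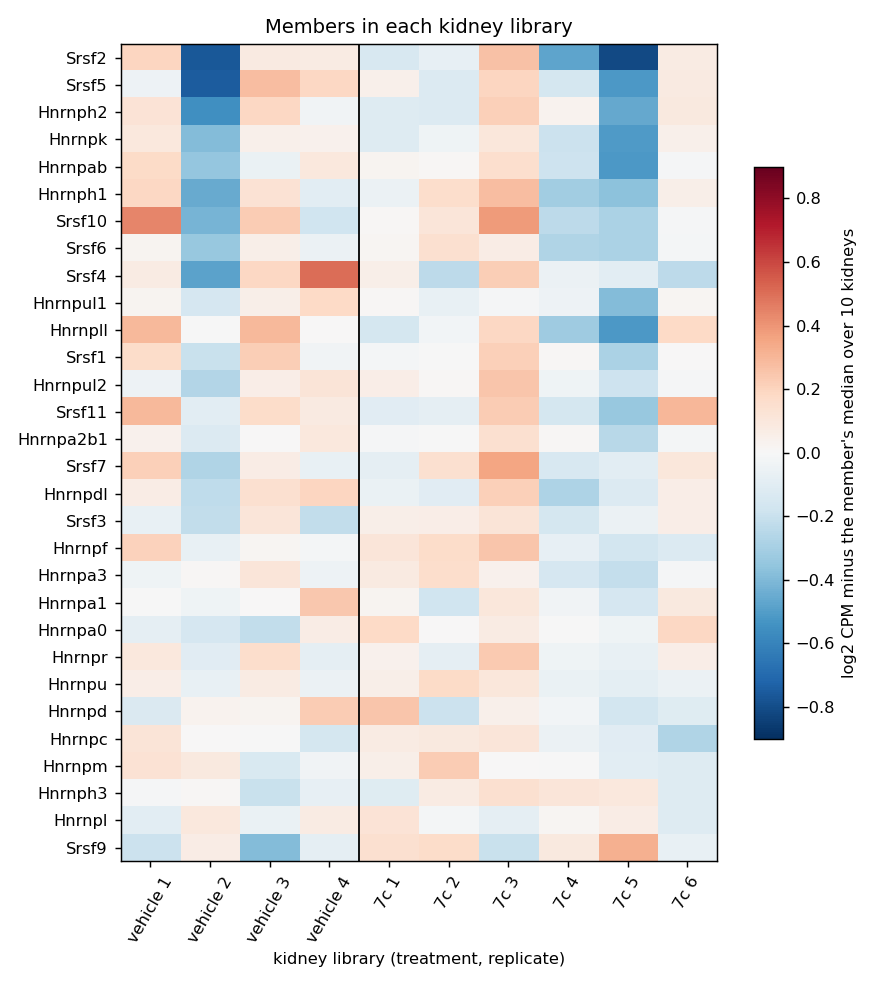
Heat map of the 30 genes in the 10 kidneys, as log2 CPM minus each gene's median over the kidneys, with genes ordered by their mean in vehicle replicate 2 and 7c replicate 5. Those 2 columns are low for most genes, down to 48.9 CPM for Srsf2 and 86.7 CPM for Srsf5, and the 7c replicate 3 column is high for many.

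In the livers, the third and the fourth vehicle library were each the lowest for 7 of the 30 genes. The third was among the 2 lowest for 14 genes, with a median deviation of -0.07, and the fourth for 8, with 0.01. As in kidney, these counts were not set against all tested genes. The median ratio of the highest to the lowest library was 1.34 over the 30 genes in liver and 1.41 in kidney, below the 1.88 and 2.07 of all tested genes with a count in every library. The largest ratio in liver was that of Srsf4, at 2.44, with 9.48 CPM in the first 7c liver and 9.27 CPM in the fourth vehicle liver against 13.5 to 22.6 CPM in the others. In kidney the largest were those of Srsf2, at 2.11, and Srsf5, at 2.04.

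Other splicing genes were read from fixed lists. No gene of any of the lists passed the threshold for 7c in liver, in kidney or in the interaction, with the lowest adjusted p at 0.997 or more in all lists of splicing factors, NMD factors and nuclear RNAs. In kidney, 14 of 17 U1, U2 and U2AF genes had a value above 0 (median log2 fold change 0.13), as did 6 of 6 Sm genes (median 0.09), 8 of 12 tri-snRNP genes (median 0.04) and 8 of 10 NMD factors (median 0.08). Over all genes 49.0% had a value above 0, with a median of -0.01. In the other lists, 3 of 4 nuclear-retained RNAs, 4 of 8 SR kinases, 6 of 12 SR-related proteins, 7 of 17 other hnRNPs and 8 of 17 regulators of tissue-restricted splicing were above 0. In liver, 9 of 17 U1, U2 and U2AF genes (median 0.01), 4 of 6 Sm genes (0.10), 4 of 12 tri-snRNP genes (-0.05) and 4 of 10 NMD factors (-0.06) were above 0, against 50.4% of all genes. The same held for 3 of 7 SR kinases, 3 of 12 SR-related proteins (-0.09), 6 of 17 other hnRNPs, 5 of 13 regulators of tissue-restricted splicing and 3 of 4 nuclear-retained RNAs. In kidney, without the second vehicle kidney the Sm median was 0.36 and without the fifth 7c kidney 0.04.

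Between the organs of vehicle mice, the kinases that phosphorylate SR proteins split. With TMM, 3 of 8 were higher and 2 lower in liver, and by library size alone 0 were higher and 3 lower. Over all genes, 25.7% were higher and 27.7% lower with TMM, and 13.9% higher and 47.3% lower by library size alone. The counts of each list are to be read against the shares of the same scaling. Srpk1, which phosphorylates SR proteins for import into the nucleus, was lower in liver (32.0 ± 3.39 against 77.8 ± 11.8 CPM), with a log2 fold change of -1.28 (SE 0.147, adjusted p = 2.34e-05 by edgeR) and -1.88 by library size alone. Clk4, a kinase of nuclear speckles, was higher, at 0.59 (SE 0.139, adjusted p = 0.00392), but at -0.02 by library size alone. Of 12 SR-related proteins 4 were higher and 0 lower with TMM, and 1 higher and 5 lower by library size alone. Luc7l2, a U1-associated protein gene, had 145 against 52.2 CPM, a log2 fold change of 1.48 (SE 0.179) and 0.86 by library size alone. Of 17 hnRNPs with other symbols 3 were higher and 1 lower with TMM, and 0 higher and 11 lower by library size alone. Pcbp3, a poly(C)-binding protein gene, was the one lower with TMM, at -4.71 (0.799 against 21.1 CPM, SE 0.240) and -5.31 by library size alone.

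Among the regulators of tissue-restricted splicing, 8 of 16 were higher and 3 lower in vehicle liver with TMM (median 0.60), and 5 higher and 6 lower by library size alone (median -0.02). Esrp2, an epithelial splicing regulator, had 103 against 37.8 CPM, a log2 fold change of 1.45 (SE 0.132, adjusted p = 3.64e-06 by edgeR) and 0.84 by library size alone. A1cf, the cofactor of Apob mRNA editing, had 59.8 against 16.3 CPM, a log2 fold change of 1.88 (SE 0.216) and 1.28 by library size alone. Both kept their direction and passed the threshold under either scaling.

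Of the core particles with TMM, 2 of 17 U1, U2 and U2AF genes were higher and 2 lower, 2 of 6 Sm genes were higher and 0 lower, and 2 of 12 tri-snRNP genes were higher and 1 lower. By library size alone 0 genes of these lists were higher, and 12, 3 and 8 were lower, beside the 47.3% of all genes that were lower with that scaling. Their calls as higher (U2af1, Snrpc, Snrpd3, Snrpe and Prpf6 among them) were lost by library size alone, while Eftud2, a GTPase of the U5 particle, was lower at -0.45 (SE 0.123, adjusted p = 0.00957 by edgeR) and at -1.05. Of 10 NMD factors 2 were higher and 3 lower with TMM, and 0 higher and 6 lower by library size alone. Of 4 nuclear-retained RNAs 1 was higher and 2 lower with either scaling. Meg3 was higher in liver at 4.27 (SE 0.385) and Malat1 lower at -1.80 (SE 0.354, 120 against 419 CPM), and both kept these directions by library size alone.

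The labelled tissues carried their markers. Summed hepatocyte markers were 85604 to 126050 CPM in livers and 395 to 748 CPM in kidneys, and Kap was at 0 in all livers. Total counts were 28383359 to 34153084 in liver, where the largest 7c total was below the smallest vehicle total, and 27855849 to 64872451 in kidney. The 5 skeletal muscle markers summed to 761 CPM in the sixth 7c liver and 0.419 to 2.19 CPM in the other livers. Summed leukocyte markers were 319 CPM in the same liver and 73.1 to 188 CPM in the other livers. In the fifth 7c kidney they were 110 CPM, against 41.0 to 82.9 CPM in the other kidneys. The 6 adipocyte markers summed to 41.6 to 112 CPM in 7c kidneys and 27.8 to 39.8 CPM in vehicle kidneys, and were 6 of 6 above 0 in log2 fold change with 0 called. The part of muscle, leukocyte and fat RNA in the values above was not tested.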

How the data were processed

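Polyadenylated RNA of liver and kidney from 6 7c and 4 vehicle mice was sequenced from stranded libraries. The authors aligned reads to GRCm39 with STAR 2.7.11b and deposited raw counts per gene from featureCounts 2.0.6. The annotation release, strand setting and treatment of multimapping reads are not given in the sources used here. All 20 columns were mapped by label. Symbols, biotypes and lengths came from GENCODE vM39, which matched 56310 genes, and unmatched genes held 0.0417% of counts. The genes described and all lists were chosen with earlier results of these data known.

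Genes reaching 10 counts in 50% or more of a fit's libraries were tested with edgeR 4.0.16 in R 4.3.3 (TMM, quasi-likelihood test, Benjamini-Hochberg adjustment over all genes tested, threshold 0.05), with treatment or tissue as the only term. The interaction was fitted on all 20 libraries with both terms, for genes that passed this filter in each organ. Library totals ranged from 27855849 to 64872451 counts. Mice shared cages before treatment and were housed singly during it. Which mice shared a cage is not given. For treatment within an organ, p-values measure the spread between these mice. The fits between organs and the interaction had no term for the mouse, so livers and kidneys of the same mice were counted as independent libraries. The p-values of those fits do not take this pairing into account. TPM and CPM were computed here. Of the genes, 22 overlap an exon on the other strand and 3 one on the same strand, so that reads may be shared. The 3 pseudogenes that carry a family symbol reach at most 0.893 CPM.

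Named genes were the 4 lowest p per organ for 7c, the 4 largest and 4 smallest liver-kidney differences in vehicle mice, the 3 highest TPM per tissue and those failing the filter, and up to 2 genes per list with the lowest p between organs, with Srsf2, Srsf4 and the poison exons of Srsf3 and Srsf7 added after values were seen. Alternatives were RLE factors, DESeq2 1.42.0, limma-voom 3.58.1, the newer edgeR method, no filter, filterByExpr, the replicate block and leaving out each replicate number. Library size alone, and leaving out vehicle 2 and 7c 5 together, were added after the data were seen. A check on simulated counts used edgeR's own fitted spread, independent libraries and changes larger than any 7c value of these genes. It does not bear on small changes or on organs that share a mouse. A single gene of the lists is counted but not reported here.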

Additional observations from a re-analysis of the deposited data

Results flagged for a closer look

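The 30 tested genes and the share of counts on the family gave 124 groups of values (each in 2 organs and 2 treatments). In 7 of them the highest or lowest library lay apart by more than Dixon's 95% critical value, 5.65% of the groups where chance gives about 5%. In the second vehicle kidney, Hnrnpk, which binds C-rich RNA, had 158 CPM, against 213 to 222 CPM in the other 3 vehicle kidneys. Srsf2 had 50.5 CPM there, against 90.4 to 97.9 CPM. The SR and hnRNP genes together took 0.266% of the counts of this library, against 0.355% to 0.367% in the other 3. In the fourth vehicle kidney, Hnrnpa1 had 83.4 CPM, against 68.5 to 70.7 CPM. In the fifth 7c kidney, Hnrnpul1 had 65.2 CPM, against 81.4 to 86.4 CPM in the other 5. In the livers, Srsf11 had 70.8 CPM in the fourth vehicle library, against 86.7 to 88.8 CPM in the other 3, and Srsf6 had 152 CPM in the second 7c library, against 125 to 135 CPM in the other 5.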

How the results depend on the processing

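No alternative called any of the 30 SR and hnRNP genes for 7c in liver, in kidney or in the interaction. The number of all genes past the threshold did move. For 7c in liver it was 1, and 6 with DESeq2, 4 with no filter, 2 with filterByExpr, 0 with the replicate block and 0 to 2 with 1 replicate number left out. For 7c in kidney it was 0, and 18 with DESeq2, 2 with limma-voom, 2 with the newer quasi-likelihood method, 3 with no filter, 3 without the replicates 7c 5 and vehicle 2, and 0 to 3 with 1 replicate number left out. For the interaction it was 1, and 16 with DESeq2, 0 with limma-voom, 11 with no filter, 4 with filterByExpr, 0 with the replicate block, 0 without 7c 5 and vehicle 2, and 0 to 6 with 1 replicate number left out. The causes were not tested.

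Between organs, the 13 genes higher in vehicle liver became 8 with RLE factors, 8 with no filter, 10 with the replicate block, 10 with DESeq2, 15 with limma-voom, 16 with the newer quasi-likelihood method, 0 by library size alone (9 lower, median -0.27) and 7 to 12 with 1 replicate number left out, with a median of 0.21 to 0.40. In 7c mice the 1 lower gene, Hnrnpl, became 0 with no filter, 0 with filterByExpr, 0 with the replicate block and 0 to 1 with 1 replicate number left out; by library size alone 1 was higher and 17 lower (median -0.41). Genes near 0 changed sign. In vehicle mice Hnrnpa0, Hnrnpm and Hnrnpul2 were at -0.0664, -0.0654 and -0.0670 with RLE factors, at -0.0664, -0.0654 and -0.0669 with DESeq2, at -0.0341, -0.0283 and -0.0295 with no filter, and at -0.60, -0.59 and -0.61 by library size alone. Hnrnpa0 was at -0.00805 with limma-voom and at -0.00876 with the replicate block. With 1 replicate number left out they ranged from -0.0488 to 0.0124, -0.0838 to 0.0633 and -0.19 to 0.0911. In 7c mice they were at 0.00285, 0.0275 and 0.00484 with filterByExpr, and from -0.11 to 0.0437, -0.0511 to 0.0850 and -0.0830 to 0.0274 with 1 replicate number left out. Hnrnpa3 in 7c mice was at -0.0221 by library size alone. The log2 ratio of the family share turned from -0.20 and -0.26 to 0.41 and 0.41 as a TMM-scaled sum, since the scaling factors differ between the organs. Of the other values for single genes, 303 kept their call, 13 lost it and 4 gained it.

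Whether same-numbered livers and kidneys are from 1 mouse is not labelled. Their deviations correlated at 0.01 to 0.26, over 0.1 in 7 of 10, and 8 of 10 libraries correlated best with their own number, so the block was kept as an alternative. Within an organ the block pairs 7c and vehicle mice that share a number alone (correlations of -0.06 to 0.30 in kidney). The planned protein features were not computed, since no protein table was used here. Srsf12 and Srsf19 had too few counts in these libraries for a difference to be detectable.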
